A study of Mus musculus with 6 samples.

Results

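The genes described here are the 8 opioid and cannabinoid receptor and opioid peptide genes of the mouse, chosen by symbol from the 24062 genes counted in each library. They are the opioid receptor genes *Oprm1*, *Oprd1*, *Oprk1* and *Oprl1*, the cannabinoid receptor genes *Cnr1* and *Cnr2*, and the opioid precursor genes *Penk* and *Pdyn*. Bulk RNA-seq was made from 6 mice of a mixed strain labelled C57BL/6-I129. In 3 of them both copies of *Nf1* were floxed and Cre recombinase was expressed under the *Dhh* promoter (*Nf1*fl/fl;*DhhCre*), called single knockout here. The other 3 also carried floxed *Runx1* and *Runx3* and are called double knockout. The genotype in their labels leaves *Nf1* out, and floxed *Nf1* in this group is taken from the study's own text. Cre was thus present in both groups, and *Dhh* is a gene of the Schwann cell (SC) lineage, so that the floxed genes were targeted in SCs and their precursors and not in neurons, macrophages or muscle. The labels name the tissue dorsal root ganglion (DRG) for the first group and neurofibroma tumor for the other, whereas the study's methods call both DRG/tumors, and a difference in dissection and a difference in genotype cannot be told apart by group. The ages of the mice were not given in the labels used here.

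Opioid receptors are G protein-coupled receptors that signal through inhibitory G proteins, lower cyclic AMP, open inwardly rectifying potassium channels and close voltage-gated calcium channels. In the DRG, the μ, δ and κ receptors (*Oprm1*, *Oprd1*, *Oprk1*) are known on sensory neurons, where they restrain transmitter release and pain signaling, and the nociceptin receptor (*Oprl1*) is their closest relative. The cannabinoid receptor CB1 (*Cnr1*) is a neuronal receptor of the same signaling class, and CB2 (*Cnr2*) is best known from immune cells. Proenkephalin (*Penk*) and prodynorphin (*Pdyn*) are cut by proprotein convertases into enkephalins and dynorphins, the peptide ligands of the opioid receptors.

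The starts of 3 receptor genes are shown because *Cnr1* and *Oprd1* were called higher in the comparison below and *Oprm1*, the most abundant opioid receptor gene by CPM, was not. Each line is the 250 bases before a RefSeq start, 5′ to 3′ on the strand of the gene, in build GRCm38.p6. The *Cnr1* window is chr4:33924014-33924263 on the plus strand, the *Oprd1* window is chr4:132144487-132144736 on the minus strand, and the *Oprm1* window is chr10:6788320-6788569 on the plus strand, which lies in an intron of the longer *Oprm1* transcripts. Capitals mark TGTGG or its reverse complement CCACA, the core of the sequence that RUNX proteins bind.
Cnr1: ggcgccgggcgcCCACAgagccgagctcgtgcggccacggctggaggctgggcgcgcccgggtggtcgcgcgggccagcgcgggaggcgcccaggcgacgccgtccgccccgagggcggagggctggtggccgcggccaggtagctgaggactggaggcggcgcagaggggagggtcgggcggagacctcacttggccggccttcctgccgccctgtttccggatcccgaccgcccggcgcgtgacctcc
Oprd1: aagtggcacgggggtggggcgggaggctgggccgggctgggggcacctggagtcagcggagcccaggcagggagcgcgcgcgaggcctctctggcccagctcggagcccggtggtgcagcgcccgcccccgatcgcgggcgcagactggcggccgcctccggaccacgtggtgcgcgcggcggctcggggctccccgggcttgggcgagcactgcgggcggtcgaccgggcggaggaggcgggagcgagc
Oprm1: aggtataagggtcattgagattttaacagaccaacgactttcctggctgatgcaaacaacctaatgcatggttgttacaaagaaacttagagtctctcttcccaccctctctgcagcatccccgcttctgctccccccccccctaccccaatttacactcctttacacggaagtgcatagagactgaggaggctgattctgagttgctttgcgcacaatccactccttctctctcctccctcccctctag
The *Cnr1* window shown held 1 match and the other two held none, but the number depends on the start chosen. The 3 *Cnr1* windows held 1, 0 and 1 matches and the 3 *Oprm1* windows held 1, 0 and 0, the one with a match being the window at chr10:6758343-6758592, so that the called and the uncalled gene are not set apart by these letters. The *Oprm1* windows without a match, chr10:6788320-6788569 and chr10:6788326-6788575, overlap almost entirely and are not separate observations. RefSeq windows were found for 6 of the 8 genes, 14 windows in all, because some genes have several starts. The 5 letters occurred in 49.3% of the 32851 windows of this length in the table, so that a match is common, and it is given as a description of the letters and not as a binding site. *Oprk1* and *Penk* were not among the genes with a window.

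The counts summed to between 12439296 and 16682194 per library. At these depths 3 counts, taken as the limit that a count of 0 allows, correspond to 0.179 to 0.247 CPM, the counts scaled to a common library total after TMM normalization. No library was a copy of another, as counts within a group gave chi-square values of 22.8 to 142 for every degree of freedom. *Runx1* was at 131 to 172 CPM in the single-knockout libraries and at 84.0, 78.9 and 185 CPM in those labelled double knockout, so that replicate 3 with that label was the highest of all 6 and goes against its label. *Runx3* was at 15.1 to 29.9 CPM against 10.3 to 13.5 CPM, and *Nf1*, targeted in both groups, was at 302 ± 30.8 and 290 ± 44.5 CPM (SD, n = 3 each). These gene counts may include exons outside the floxed parts and RNA of cells without Cre. The labels also place that same replicate 3 in a sequencing run of its own, although the mouse number named for that run is found in the data of replicate 2, so that results are given without each of these libraries. Single-knockout replicate 2 and double-knockout replicate 2 stood apart by their skeletal muscle genes, of which 7 summed to 2159 and 11190 CPM against 5.52 to 63.0 CPM in the other libraries.

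In the fit over all genes, 15652 passed the filter on low counts, and 7 of the 8 genes were among them. *Pdyn* did not pass. *Cnr1* and *Oprd1* were called higher in the libraries labelled double knockout, by an adjusted p under 0.05 and a change of more than 2-fold, and none was called lower. The calls made up 13.4% of all genes tested in either direction, 8.03% for higher and 5.36% for lower. Apart from *Cnr1* and *Oprd1*, both *Oprk1* and *Oprl1* had no overlap between the groups, which makes 4 of 7 genes where 42.3% of all genes tested had none. A list of 7 genes is too short for its share to be set apart from these percentages. *Oprk1* and *Oprl1* had fewer than 10 counts in single-knockout replicates 1 and 2. They passed the filter because of the libraries labelled double knockout, so that the filter and their lack of overlap are not independent. Under the stricter of the alternative filters, *Oprl1* dropped out and was not tested.

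**Figure D1:**
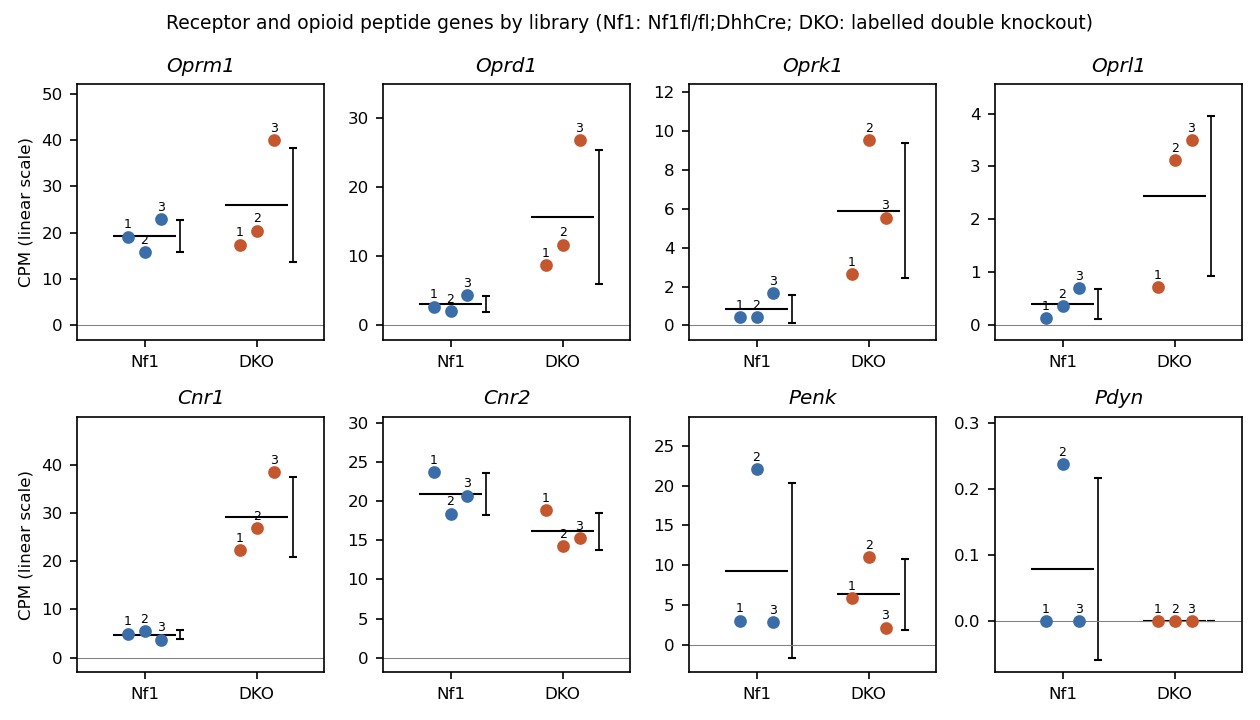
Normalised counts (CPM, linear scale) of the 8 genes, 1 point per library numbered by replicate, with the group mean as a line and the SD (n = 3) as a bar. *Cnr1*, *Oprd1* and *Oprk1* lay higher in every library labelled double knockout than in any single-knockout library, *Oprl1* only by a narrow margin (0.706 against 0.717 CPM), whereas the groups overlapped for *Oprm1*, *Cnr2* and *Penk*.

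Among the opioid receptors, the δ receptor gene *Oprd1* rose about 5-fold and the μ receptor gene *Oprm1* did not pass the test. *Oprm1* (chromosome 10 of GRCm38, 6758506 to 7038198, plus strand) was at 19.1, 15.8 and 22.9 CPM in the single-knockout libraries. The libraries labelled double knockout gave 17.5, 20.5 and 40.0 CPM, and replicates 1 and 2 of these lay within the range of the other group. The log2 fold change was 0.38 (SE 0.33, 95% confidence interval -0.40 to 1.15, limma-voom adjusted p = 0.462, by the Benjamini-Hochberg method over all genes here and below), an interval that includes both no change and an increase of more than 2-fold. Without replicate 3 labelled double knockout, which held the highest value, the log2 fold change was -0.01 (limma-voom adjusted p = 0.988).

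*Oprd1* (chromosome 4, 132110726 to 132144486, minus strand) encodes the δ receptor, which enkephalins bind. It was at 2.70, 2.09 and 4.36 CPM in the single-knockout libraries, behind which stood 35 to 68 counts each. The libraries labelled double knockout were at 8.69, 11.7 and 26.8 CPM, with no overlap and with replicate 3 more than 2-fold above replicates 1 and 2. Its log2 fold change was 2.30 (SE 0.59, limma-voom adjusted p = 0.0363). Leaving out 1 of the 6 libraries at a time ended the call in 4 fits, where the adjusted p from limma-voom was 0.109, 0.0731 and 0.0783 without single-knockout replicates 1, 2 and 3 and 0.0731 without double-knockout replicate 2. The log2 fold changes in these 4 fits were 2.29, 2.10, 2.64 and 2.44. It held without replicate 3 labelled double knockout, at a log2 fold change of 1.79 (limma-voom adjusted p = 0.0336).

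*Oprk1* (chromosome 1, 5588466 to 5606131, plus strand), the gene of the κ receptor that dynorphins bind, was among the lowest of the receptors. It had 6, 7 and 26 counts in the single-knockout libraries, or 0.416, 0.417 and 1.67 CPM. In those labelled double knockout it had 33, 116 and 84 counts, or 2.63, 9.54 and 5.55 CPM. All 3 of these values lay above the other group, and the highest was the muscle-rich replicate 2. The log2 fold change was 2.90 (SE 0.84, limma-voom adjusted p = 0.0512), which misses the threshold, whereas edgeR's quasi-likelihood test on the same genes gave 2.81 (adjusted p = 0.0362) and DESeq2 gave 2.81 (adjusted p = 9.3e-04). It passed the threshold under 6 of the 7 alternative tools, filters and scalings that keep all libraries, these 2 included, the scaling to neuronal genes described later not being counted among the 7. Leaving out 1 library at a time, it was called without double-knockout replicate 1 (3.38, limma-voom adjusted p = 0.0329) and in none of the other 5 fits, where the adjusted p from limma-voom ran from 0.0925 to 0.166 and was 0.106 without replicate 3 labelled double knockout. Without both muscle-rich libraries it was 2.18 (limma-voom adjusted p = 0.140).

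*Oprl1* (chromosome 2, 181715016 to 181720985, plus strand), the gene of the nociceptin receptor, rested on 2, 6 and 11 counts in the single-knockout libraries. These were 0.139, 0.357 and 0.706 CPM, of which the first is under the limit that a count of 0 allows. The libraries labelled double knockout had 9, 38 and 53 counts, or 0.717, 3.12 and 3.50 CPM. Replicate 1 of this group was thus level with the highest single-knockout library, and the others were higher. The log2 fold change was 2.49 (SE 0.99, limma-voom adjusted p = 0.122). DESeq2 called it (2.60, adjusted p = 0.0134), and so did limma-voom without double-knockout replicate 1 (3.21, adjusted p = 0.0328), but edgeR did not (2.58, adjusted p = 0.0600). The other 5 fits that left out 1 library did not call it, with adjusted p from limma-voom of 0.209 to 0.299, 0.237 of these without replicate 3 labelled double knockout, and neither did the fit without both muscle-rich libraries (2.29, limma-voom adjusted p = 0.283).

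The proportions of the 4 receptor genes were also compared within each library, with the values above known, after dividing CPM by the length of the annotated exons of each gene. *Oprm1* made up 75.9%, 74.9% and 66.2% of the summed opioid receptor CPM per kb in the single-knockout libraries and 45.1%, 34.8% and 37.8% in those labelled double knockout. *Oprd1* made up 21.4%, 19.7% and 25.2% against 44.9%, 39.6% and 50.6%. The groups did not overlap for either gene, and each difference had an exact permutation p of 0.1 (two-sided, n = 3 against 3), the smallest that this design can give. The shares within a library add up to the whole, so a higher *Oprd1* share lowers that of *Oprm1*. These tests are therefore not separate results, and the lower *Oprm1* share does not mean lower *Oprm1* CPM. *Oprk1* accounted for 2.47 ± 1.53% and 8.27 ± 5.21% (SD, n = 3 each) and *Oprl1* for 3.06 ± 1.67% and 7.47 ± 3.71% (SD, n = 3 each). Dividing by the longest annotated transcript instead, a setting chosen after the data were seen, raised the *Oprm1* share to 88.6 ± 3.13% and 64.8 ± 6.12% (SD, n = 3 each), since *Oprm1* has 31 annotated transcripts whose joined exons (8.04 kb) exceed the longest of them (2.42 kb). With that length the *Oprd1* share was 8.20% and 22.5% (means of 3 libraries each), so that *Oprm1* and not *Oprd1* was the largest share in every library. The direction of the difference between the groups was the same under both lengths for each of these genes. A length is the same in every library, so this is no independent check of that direction.

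**Figure D2:**
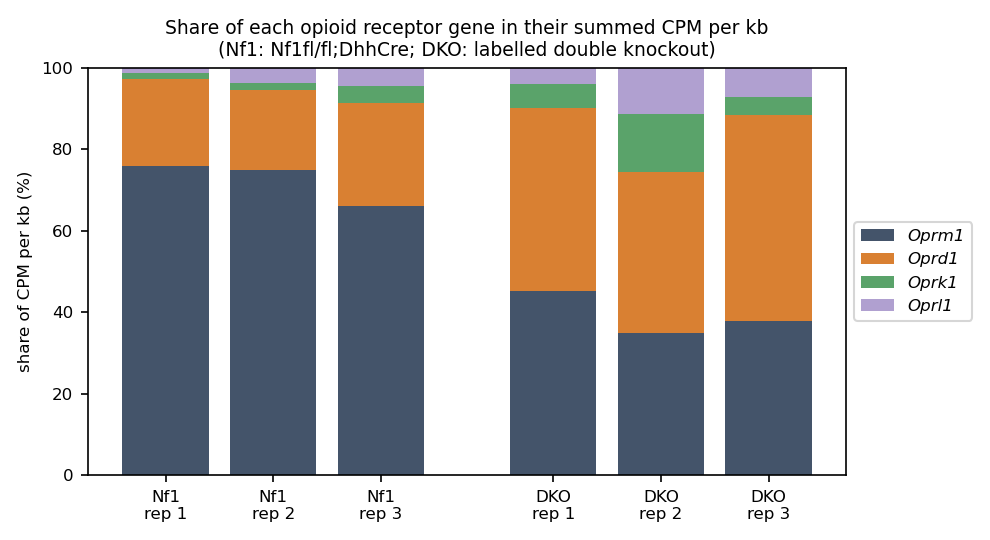
Share of each opioid receptor gene in the summed CPM per kb of the 4 genes (bars from 0 to 100%), 1 bar per library. *Oprm1* filled 66.2% to 75.9% of the bar in the single-knockout libraries and 34.8% to 45.1% in the libraries labelled double knockout, where *Oprd1* filled 39.6% to 50.6%. Lengths are those of all annotated exons, and with the longest transcript *Oprd1* had a mean share of 22.5% in that group.

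The cannabinoid receptor genes differed from each other. *Cnr1* (chromosome 4, 33924593 to 33948831, plus strand) was at 4.99, 5.54 and 3.72 CPM in the single-knockout libraries, on 58 to 93 counts. The libraries labelled double knockout were at 22.3, 26.9 and 38.4 CPM, on 280 to 582 counts, and even the lowest was far above the other group. The log2 fold change was 2.60 (SE 0.33, limma-voom adjusted p = 0.00845), a fitted ratio of 6.08. Leaving out any 1 of the 6 libraries kept the call, with log2 fold changes from 2.38 to 2.82. It was also called without both muscle-rich libraries (a setting added after the data were seen, 2.79, limma-voom adjusted p = 0.0194) and without replicate 3 labelled double knockout (2.38, limma-voom adjusted p = 0.0163).

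*Cnr2* (chromosome 4, 135895394 to 135920207, plus strand) encodes CB2, a receptor of macrophages and other leukocytes. It was at 23.7, 18.4 and 20.7 CPM in the single-knockout libraries and at 18.9, 14.3 and 15.3 CPM in those labelled double knockout. The highest double-knockout library lay just above the lowest of the other group. The log2 fold change was -0.37 (SE 0.19, 95% confidence interval -0.82 to 0.07, limma-voom adjusted p = 0.207). *Cnr2* was not called under any of the settings that scale by library size, TMM or size factors, nor in any fit that left out 1 library, and its log2 fold change in the latter stayed between -0.45 and -0.26.

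The opioid precursors showed no difference that could be detected. *Penk* (chromosome 4, 4133531 to 4138819, minus strand) was at 3.05, 22.0 and 2.89 CPM in the single-knockout libraries and at 5.90, 11.0 and 2.18 CPM in those labelled double knockout. The highest value in each group was replicate 2, the library rich in muscle genes. The log2 fold change was -0.28 (SE 0.93, 95% confidence interval -2.46 to 1.90, limma-voom adjusted p = 0.864). Without both muscle-rich libraries it was 0.22 (limma-voom adjusted p = 0.847), and its sign also turned without single-knockout replicate 2 (0.75) and without replicate 3 labelled double knockout (0.41). The 3 most abundant genes of the muscle list, the myosin heavy chain genes *Myh4* and *Myh1* and the troponin gene *Tnnt3*, were at 822, 658 and 233 CPM in single-knockout replicate 2 and at 8227, 414 and 716 CPM in double-knockout replicate 2, whereas *Myh4* was at 37.3 CPM or less in the other 4 libraries. The part of muscle RNA in the *Penk* values was not tested. An annotated transcript on the opposite strand, *A830012C17Rik*, covers 14.3% of the *Penk* exon bases, and whether the counting used strand is not stated. *Pdyn* (chromosome 2, 129686565 to 129699844, minus strand) had 4 counts in single-knockout replicate 2 and 0 in the 5 other libraries, each of which allows up to 0.192 to 0.247 CPM. Without a fitted value, its CPM was compared by an exact permutation test (p = 1, two-sided, n = 3 against 3), and a difference in *Pdyn* was not detectable at this depth.

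Levels of different genes can be compared only per length of their exons. In the single-knockout libraries the order by mean CPM per kb was *Penk* (5.71 ± 6.74), *Cnr2* (5.26 ± 0.669), *Oprm1* (2.40 ± 0.439), *Oprd1* (0.759 ± 0.293), *Cnr1* (0.737 ± 0.145), *Oprl1* (0.107 ± 0.0762), *Oprk1* (0.0911 ± 0.0789) and *Pdyn* (0.0275 ± 0.0477), each as mean ± SD with n = 3. The neighbours *Penk* and *Cnr2*, *Oprd1* and *Cnr1*, *Oprl1* and *Oprk1*, and *Oprk1* and *Pdyn* overlapped, and the steps from *Cnr2* to *Oprm1*, from *Oprm1* to *Oprd1* and from *Cnr1* to *Oprl1* were free of overlap. The first place of *Penk* rested on muscle-rich replicate 2, at 13.5 CPM per kb, as it was at 1.87 and 1.77 CPM per kb in replicates 1 and 3, below every value of *Cnr2* and *Oprm1*. In the libraries labelled double knockout the order was *Cnr1* (4.53 ± 1.29), *Cnr2* (4.06 ± 0.604), *Oprd1* (3.91 ± 2.42), *Penk* (3.90 ± 2.72), *Oprm1* (3.23 ± 1.52), *Oprl1* (0.652 ± 0.402) and *Oprk1* (0.645 ± 0.379), with *Pdyn* at 0. Here the first 5 could not be ranked, because each overlapped its neighbour, and all of them lay above *Oprl1* and *Oprk1*. Dividing by the longest transcript instead put *Oprm1* first in both groups, at 7.97 and 10.7 CPM per kb.

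Genes that neurons share differed between the groups. All 12 pan-neuronal genes were called higher in those libraries labelled double knockout, with a median log2 fold change of 2.39 against 0.02 over all genes tested. Their summed level was 1226 to 2418 CPM in the single-knockout libraries and 5938 to 13350 CPM in those labelled double knockout. The neurofilament genes *Nefl* and *Nefm* rose by 2.40 and 2.38 on the log2 scale (SE 0.39 for each, limma-voom adjusted p = 0.0120 and 0.0124), and the SNARE gene *Snap25* by 2.53 (SE 0.34, limma-voom adjusted p = 0.00919). In bulk tissue, fewer cells of a type and less RNA per cell cannot be told apart, and the part of the neuronal content in the receptor values is addressed here only by comparison within each library. Of the classes of sensory neuron, 4 of 4 peptidergic, 3 of 4 non-peptidergic, 2 of 4 large-diameter and 2 of 2 low-threshold C fibre markers were called higher. Among them, *Calca*, which encodes the peptide CGRP, differed by 1.99, *P2rx3*, an ATP-gated channel of non-peptidergic nociceptors, by 2.57, *Nefh*, a heavy neurofilament of large neurons, by 2.19 and *Th*, a marker of low-threshold C fibres, by 2.53 (log2 fold changes). *Ntrk2*, the most abundant gene of the large-diameter list, which glia also express, was at 546 ± 85.4 and 421 ± 84.7 CPM (SD, n = 3 each; log2 fold change -0.38, limma-voom adjusted p = 0.187). The list of 10 spinal cord markers summed to 7.18 to 18.2 CPM in the single-knockout libraries and to 15.4 to 34.8 CPM in those labelled double knockout. The inhibitory neuron transporter genes *Slc32a1* and *Slc6a5* were at 0 counts in all 6 libraries, whereas *Gad2*, a glutamate decarboxylase gene, was at 5.39 to 8.05 CPM in all 6 and *Gad1* was at 6.52 CPM in single-knockout replicate 1. *Aqp4*, a water channel gene known from astrocytes, was at 1.22 to 4.35 CPM and then at 5.82 to 27.6 CPM (log2 fold change 2.42, SE 0.81, limma-voom adjusted p = 0.0770). Its highest value in each group was that of the muscle-rich library, replicate 2, and the part of muscle RNA in it was not tested. The part of spinal cord RNA in the receptor values was not tested.

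Markers of other cell types differed along with the neuronal genes. All 5 myelinating SC markers were called higher, with a median log2 fold change of 1.32, and summed to 4564 to 5439 CPM in the single-knockout libraries and to 9757 to 13080 CPM in those labelled double knockout. The myelin protein genes *Pmp22* and *Mbp* rose by 1.21 and 1.32 on the log2 scale. Of 6 general SC markers, 2 were called higher and none lower, with a median of 0.03, and of 3 satellite glial cell markers 1 was called higher and 1 lower. Of 7 fibroblast markers, 4 were called lower and none higher, with a median of -1.09, and their sum was 7819 to 8587 CPM against 2865 to 4607 CPM. The matrix protein genes *Dcn* and *Lum* fell by 1.21 and 1.66 on the log2 scale. None of 4 endothelial markers was called. The parts of these cells in the receptor values were not tested.

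Each receptor and precursor gene was then set against the mean log2 CPM of the 12 pan-neuronal genes within the same library. *Cnr1* lay at -2.73, -3.61 and -3.09 log2 units in the single-knockout libraries and at -2.68, -2.69 and -3.01 in those labelled double knockout. These overlapped, and the group means differed by 0.35 (exact permutation p = 0.2, two-sided, n = 3 against 3). *Oprd1* lay at -3.83 ± 1.09 and -3.82 ± 0.260 (SD, n = 3 each), a difference of 0.01 (exact permutation p = 1, n = 3 against 3). *Oprk1* and *Oprl1* differed by 0.65 and 0.22 with overlapping groups (exact permutation p = 0.5 and 0.9, n = 3 against 3). Without 1 library at a time, the difference ranged from 0.12 to 0.56 for *Cnr1* and from -0.58 to 0.49 for *Oprd1*. For *Oprk1* it ranged from -0.018 to 1.48 and for *Oprl1* from -0.19 to 0.91. The groups overlapped for each of these 4 genes.

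For *Oprm1*, *Cnr2* and *Penk* the groups did not overlap on this scale. *Oprm1* lay at -0.80, -2.10 and -0.48 relative to the pan-neuronal mean in the single-knockout libraries and at -3.03, -3.08 and -2.95 in those labelled double knockout, in log2 units. The means differed by -1.89 (exact permutation p = 0.1, two-sided, n = 3 against 3, the smallest possible). The 3 libraries labelled double knockout lay close to each other (SD 0.0643), and in the fits that left out 1 library the difference stayed between -2.38 and -1.57. The means of *Penk* and *Cnr2* differed by -2.39 and -2.62, each with an exact permutation p of 0.1 (n = 3 against 3). Whether *Oprm1* differs from the other receptor genes on this scale was not tested, and its share among the opioid receptor genes is given above. The test was run for 7 genes, and with 3 libraries a group none could pass a threshold of 0.05. When limma-voom was run with libraries scaled to the pan-neuronal genes, a setting chosen after the data were seen, *Oprm1* had a log2 fold change of -1.87 (adjusted p = 0.0031), and *Oprm1*, *Penk* and *Cnr2* were the 3 of 7 genes called lower, with none called higher. Under this scaling 83.7% of all genes tested were called lower and 0.147% higher, so that a gene called lower there is like most genes of the tissue.

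**Figure D3:**
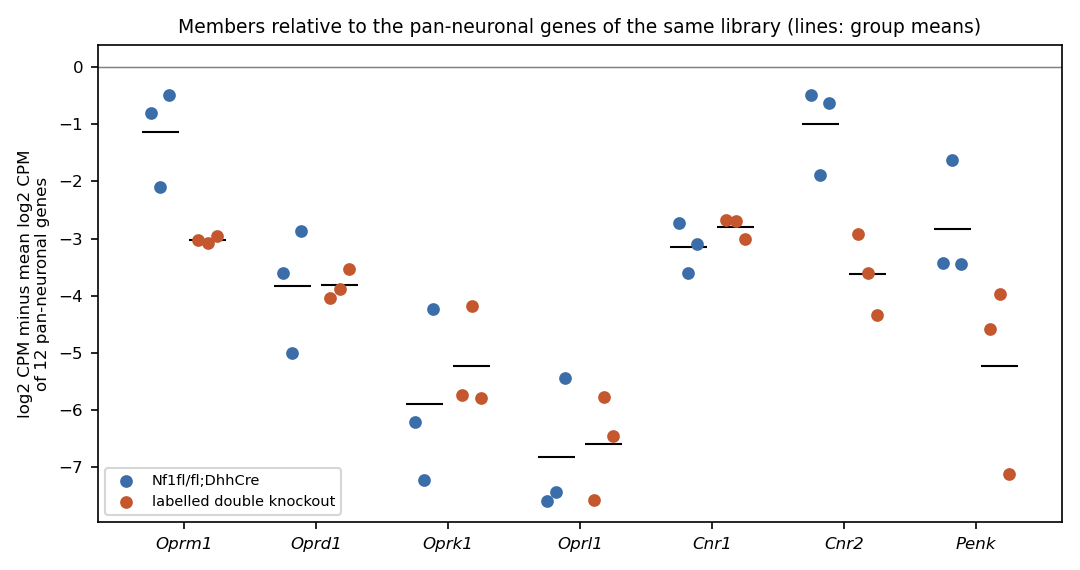
Level of each gene relative to the pan-neuronal genes (log2 CPM minus the mean log2 CPM of 12 genes in the same library), 1 point per library, with group means as lines. *Cnr1*, *Oprd1*, *Oprk1* and *Oprl1* overlapped between the groups, whereas *Oprm1*, *Cnr2* and *Penk* were lower in each library labelled double knockout than in any single-knockout library.

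An overlapping gene on the opposite strand bears on the *Oprm1* counts. *Ipcef1* shares 96 exon bases with *Oprm1*, 1.19% of the *Oprm1* exons, and reads there cannot be assigned to either gene without strand. *Ipcef1* was at 38.8, 14.8 and 53.6 CPM in the single-knockout libraries and at 8.13, 3.62 and 7.26 CPM in those labelled double knockout, and its log2 fold change was -2.35 (SE 0.66, limma-voom adjusted p = 0.0468). Its part in the *Oprm1* values was not tested.

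For *Cnr2*, the cells to compare with were leukocytes, of which macrophages and T cells are given here. Of 10 macrophage markers tested, all 10 were lower and 8 of them were called, with a median log2 fold change of -2.21. Their summed level was 600 to 1284 CPM in the single-knockout libraries and 120.5 to 300.0 CPM in those labelled double knockout. The 3 most abundant, the mannose receptor gene *Mrc1*, the growth factor receptor gene *Csf1r* and the complement gene *C1qb*, fell by 2.04, 2.16 and 2.65 on the log2 scale (SE 0.33, 0.40 and 0.51, limma-voom adjusted p = 0.0124, 0.0160 and 0.0170). Relative to the mean of the 10 genes, *Cnr2* lay at -1.33, -1.06 and -1.88 in the single-knockout libraries and at -0.03, 1.07 and -0.02 in those labelled double knockout, in log2 units. The groups did not overlap, with a difference of 1.76 (exact permutation p = 0.1, n = 3 against 3, the smallest possible), and this comparison was chosen after the data were seen. A gene that did not change would also lie higher on this scale, since the macrophage genes it is set against had a median log2 fold change of -2.21. Of 6 T cell markers tested none was called, although all 6 were lower, with a median log2 fold change of -2.11, and the list summed to 16.6 to 58.8 CPM and then to 4.82 to 13.4 CPM. Not every leukocyte list is reported. Genes of the list left out went in both directions, unlike those of the lists above, and none of them was called. The lists given here thus do not stand for leukocytes in general. The part of the leukocyte content in the *Cnr2* level was not tested.

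**Figure D4:**
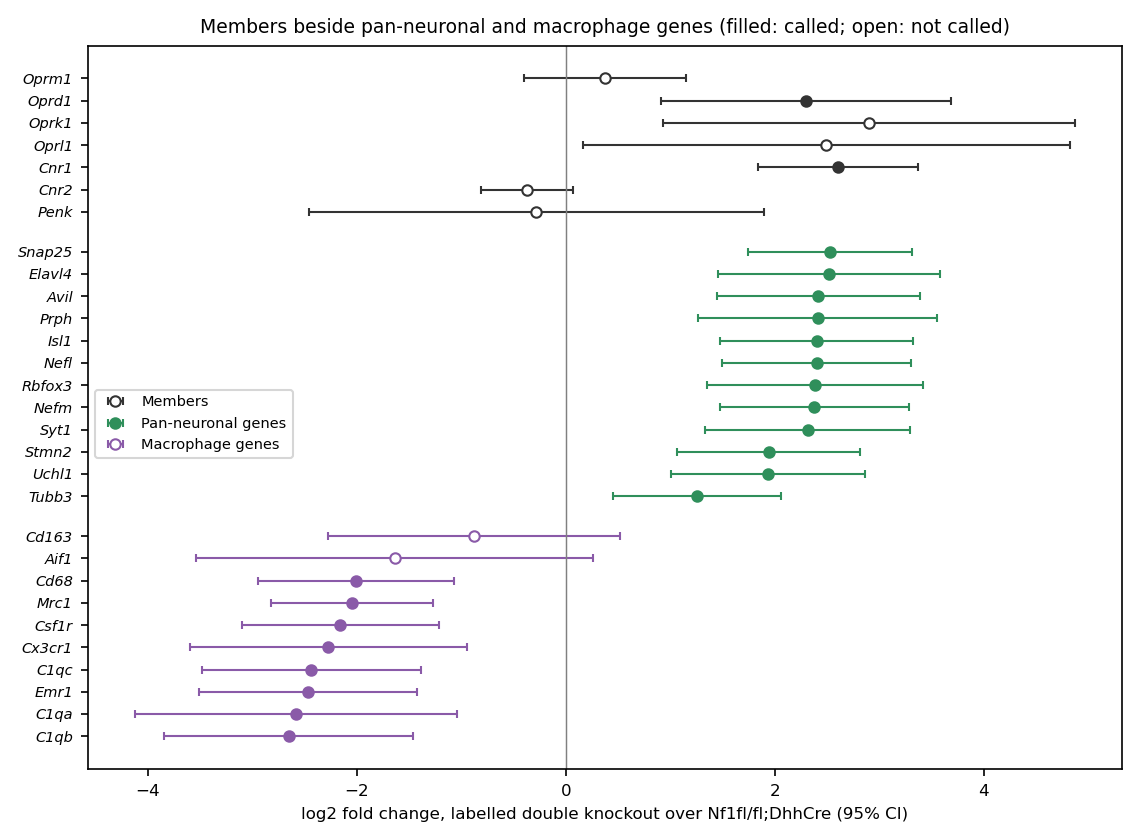
Log2 fold change (x axis, with 95% confidence interval) between the libraries labelled double knockout and the single-knockout libraries for the 7 genes tested, 12 pan-neuronal genes and 10 macrophage genes, filled where called. *Oprd1* (2.30) and *Cnr1* (2.60) lay among the pan-neuronal genes (1.26 to 2.53) or just beyond them, *Oprm1* (0.38) lay below all 12, and *Cnr2* (-0.37) lay above all 10 macrophage genes (-2.65 to -0.88).

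The genes whose log2 CPM followed each of the 7 genes most closely over the 6 libraries were sought among 10219 genes with a mean log2 CPM of at least 3. Nearest to *Cnr1* were *A330076H08Rik*, the neuronal amino acid transporter gene *Slc6a17* and *Gm20300* (Pearson r = 0.9994, 0.9985 and 0.9982 over 6 libraries). *Slc6a17* was at 14.8 to 19.5 CPM in the single-knockout libraries and at 74.3 to 136 CPM in those labelled double knockout. Nearest to *Oprd1* were *Raph1*, *Sub1* and *Zfp40* (r = 0.9944, 0.9938 and 0.9930), nearest to *Oprk1* *Psma7*, *Snx13* and *Kbtbd11* (r = 0.9933, 0.9868 and 0.9865), and nearest to *Oprl1* *Dhx32*, *Ubqln1* and *9830147E19Rik* (r = 0.9961, 0.9929 and 0.9927). *Oprm1* had *Pik3r3*, a regulatory subunit of phosphoinositide 3-kinase, *Rps6ka3* and *Akr1a1* nearest to it (r = 0.9978, 0.9887 and 0.9792). *Pik3r3* was at 39.7 to 51.4 CPM and then at 42.7, 48.7 and 85.6 CPM, with its highest value in the same library as *Oprm1*. *Cnr2* was nearest to *Grik2*, *Ap5z1* and *Ctbs* (r = 0.9947, 0.9916 and 0.9889), and *Penk* to *Fam160a1*, *Mpzl2* and *Crim1* (r = 0.9842, 0.9786 and 0.9714). These are the highest of many correlations over 6 points that share libraries and group differences, and they are given as a description only.

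The other genes of opioid and cannabinoid signaling were followed in 8 lists that held 81 genes, of which 76 were tested. Of these, 18 were called higher and 4 lower, with a median log2 fold change of 0.53 against 0.02 over all genes tested, and 8.03% and 5.36% of all genes tested were called higher and lower. The number called higher dropped to 4 without single-knockout replicate 1 and to 10 without its replicate 3. Over all genes tested, the number called higher dropped from 1257 to 181 and to 535 in the same fits.

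Of the opioid precursors and the enzymes that process them, 3 of 6 tested were called higher, and all 6 had a positive log2 fold change. The proprotein convertase genes *Pcsk1* and *Pcsk2*, which cut the precursors, rose by 1.86 and 1.25 on the log2 scale (SE 0.36 and 0.23, limma-voom adjusted p = 0.0170 and 0.0160), and *Pcsk1n*, which encodes an inhibitor of the first, rose by 2.68 (SE 0.61, limma-voom adjusted p = 0.0260). *Pcsk2* was at 27.0, 25.2 and 21.4 CPM against 46.2, 52.5 and 78.4 CPM. *Ctsl*, a cathepsin that can process proenkephalin and the most abundant of the list, was at 222 ± 40.4 and 378 ± 135 CPM (SD, n = 3 each) and was not called. The precursors *Pomc* and *Pnoc* were at 0.411 CPM or less in every library and were not tested. Beside them, the log2 fold change of *Penk* was -0.28 and not past the test.

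The peptidases that degrade enkephalins moved in both directions. *Mme*, which encodes neprilysin, rose by 1.64 (SE 0.21, limma-voom adjusted p = 0.00862), from 126, 87.5 and 105 CPM to 315, 422 and 266 CPM. *Anpep*, which encodes aminopeptidase N, fell by 1.28 on the log2 scale (SE 0.24, limma-voom adjusted p = 0.0159), from 55.2, 53.4 and 57.9 CPM to 34.0, 16.8 and 20.9 CPM. The other 4 genes of the list were not called.

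In the endocannabinoid lists, 1 of 13 genes tested was called. *Gde1*, a phosphodiesterase gene of a route to anandamide, was at 11.9, 14.2 and 13.9 CPM and then at 24.2, 28.9 and 28.4 CPM (log2 fold change 1.02, SE 0.17, limma-voom adjusted p = 0.0127). *Abhd4* and *Abhd12*, the most abundant genes of synthesis and of breakdown, were at 72.3 ± 8.92 and 65.5 ± 4.87 CPM and at 58.2 ± 10.8 and 77.7 ± 19.3 CPM (SD, n = 3 each). Among the other receptors and partners, *Gpr18*, a lipid-sensing receptor gene, fell by 1.51 (SE 0.30, limma-voom adjusted p = 0.0182), and *Ackr3*, an atypical receptor that also takes up opioid peptides, was at 37.2 ± 16.2 and 39.3 ± 19.2 CPM (SD, n = 3 each).

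The transducers of these receptors included several genes that rose. Of 12 G protein subunit genes tested, 4 were called higher and none lower, and 9 had a positive log2 fold change. The inhibitory α subunit genes *Gnai2* and *Gnai3* were lower, at log2 fold changes of -0.46 and -0.34. *Gnai1* was higher, at 0.57, and none of these α subunit genes was called. *Gnao1*, the α subunit of Go that is abundant in neurons, was at 68.9, 139 and 49.3 CPM and then at 309, 389 and 655 CPM (log2 fold change 2.46, SE 0.41, limma-voom adjusted p = 0.0128). *Gng3*, *Gnaz* and *Gnb5* rose by 2.01, 1.48 and 1.20, and *Gnb1*, the most abundant of the list, was at 323 ± 3.74 and 478 ± 110 CPM (SD, n = 3 each) and was not called. Of 14 effector genes tested, 4 were called higher and 1 lower. The channel genes were *Kcnj3*, a subunit of the inwardly rectifying potassium channel that opioid receptors open (2.55), and *Cacna1b*, the N-type calcium channel that they inhibit (2.0), and the adenylyl cyclase genes were *Adcy8* (2.41) and *Adcy1* (2.34). *Adcy7*, named after its value was seen as the only one called lower, fell by 1.70 (SE 0.20, limma-voom adjusted p = 0.00764).

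Genes of desensitization and sorting were split, with 5 of 17 tested called higher, 1 lower and a list median of -0.01. The regulators of G protein signaling *Rgs4*, *Rgs17* and *Rgs7* rose by 2.80, 2.43 and 2.12 (SE 0.50, 0.51 and 0.21, limma-voom adjusted p = 0.0147, 0.0207 and 0.00613). *Rgs4* was at 77.0, 230 and 66.1 CPM and then at 610, 536 and 1216 CPM. *Gprasp2* and *Gprasp1*, which encode proteins that direct receptors to lysosomes, rose by 1.70 and 1.06. *Arrb2*, which encodes β-arrestin 2, fell by 1.20 (SE 0.27, limma-voom adjusted p = 0.0245), and *Gprasp1* and *Arrb2* were named after their values were seen. With the libraries scaled to the pan-neuronal genes, 0 of the 76 were called higher and 51 were called lower, where 0.147% and 83.7% of all genes tested were, since that scaling lowers all genes alike.

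**Figure D5:**
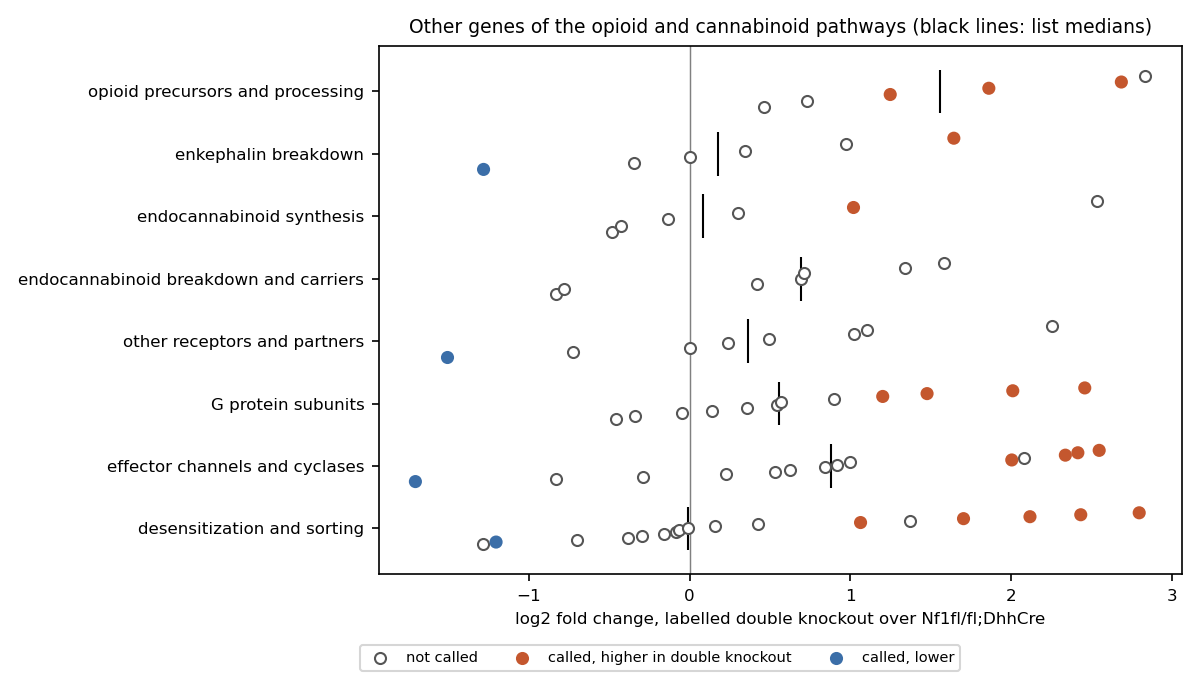
Log2 fold change (x axis) of the 76 other pathway genes tested, grouped by list (rows), with 1 point per gene, colored where called and open where not, and the list median as a black line. The medians ran from -0.01 for desensitization and sorting to 1.55 for precursors and processing, and 18 genes were called higher and 4 lower.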

How the data were processed

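RNA of DRG/tumors from 3 *Nf1*fl/fl;*DhhCre* (single-knockout) and 3 double-knockout mice was amplified by the authors with the Ovation system, made into Nextera XT libraries, sequenced in pairs and aligned to mm10 with TopHat, and the labels also list CASAVA 1.4. The authors deposited counts of reads per gene from featureCounts, not normalized; annotation, strand use and how multi-mapping reads were handled are not given in the sources used here. Counts per library (12439296 to 16682194) bound counting error only. Replicate numbers follow the order of the labels, and nothing says more of the mice, so p-values measure the spread between these samples.

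The filter was filterByExpr at a minimum count of 10 and a minimum total of 15. Libraries were scaled by TMM in edgeR 4.0.16, and genes were fitted with limma-voom (limma 3.58.1, R 4.3.3) with genotype as the only term, and p-values were adjusted over all genes by the Benjamini-Hochberg method. A call needed an adjusted p under 0.05 and a change of more than 2-fold, the thresholds of the study. CPM was computed from counts and TMM factors, and log2 CPM with a prior count of 0.5. The members and lists were chosen with earlier results of these data known, and settings described as added or chosen later were tried after the counts had been fitted here. Genes named were the 8 members, in each pathway list the called genes up to the 4 with the largest change and the most abundant gene, up to 3 abundant markers of the lists given beside a member, the 3 nearest patterns per member, and the targeted genes. Some marker genes that meet the rule, and 1 list of leukocyte markers, are not reported. Exact permutation tests used all regroupings of the 6 libraries and were two-sided. Positions and exon lengths came from GENCODE M21. The model steps were tested on simulated counts. Alternatives were DESeq2 1.42.0, edgeR's quasi-likelihood test, DESeq2's size factors, library size only, other filters, sample quality weights, other thresholds, a prior count of 2, the longest transcript and leaving out each library. Plots used Python 3.11.15 and matplotlib 3.10.9. Other assays of the study were not analysed here.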

Additional observations from a re-analysis of the deposited data

How the results depend on the processing

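The number of receptor and peptide genes called was 2 in the fit described above. It was 4 with DESeq2 and with unadjusted p and a change of more than 2-fold, and 1, *Cnr1*, without both muscle-rich libraries, a setting added after the data were seen. Without 1 library at a time it ranged from 1 to 4, being 1 without any of the 3 single-knockout libraries and without double-knockout replicate 2, and 4 without double-knockout replicate 1. Pathway genes called higher ranged from 4 to 22 and those called lower from 1 to 4 without 1 library, and 1 was called lower without both muscle-rich libraries. With the libraries scaled to the pan-neuronal genes, added after the data were seen, which moved the median of all genes by -2.24 on the log2 scale, the numbers were 0 and 51. There *Oprm1* turned to -1.87, and *Cnr1* and *Oprd1*, at 0.39 and 0.15, were no longer called. *Penk* changed sign with sample quality weights (0.45), without single-knockout replicate 2 (0.75), without replicate 3 labelled double knockout (0.41) and without both muscle-rich libraries (0.22), and *Oprm1* without replicate 3 labelled double knockout (-0.0069). Without 1 library *Oprm1* ranged from -0.0069 to 0.66 and *Penk* from -0.80 to 0.75.

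Of the differences relative to the pan-neuronal genes, those of *Oprm1*, *Cnr1*, *Cnr2* and *Penk* kept their sign in every setting run, but not all kept their size. *Penk*, at -2.39, was at -1.44 without replicate 3 labelled double knockout, and *Cnr1*, at 0.35, was at 0.12 without single-knockout replicate 2, at 0.56 without its replicate 1 and at 0.068 without both muscle-rich libraries. Small differences of the other receptors turned. *Oprk1* was at -0.55 without both muscle-rich libraries and ranged from -0.018 to 1.48 without 1 library. *Oprd1* was at -0.026 with a prior count of 2 and at -0.55 without both muscle-rich libraries, and ranged from -0.58 to 0.49 without 1 library, with -0.14 without replicate 3 labelled double knockout. *Oprl1* was at -0.084 with a prior count of 2 and at -0.50 without both muscle-rich libraries, and ranged from -0.19 to 0.91, with -0.17 without single-knockout replicate 1 and -0.09 without its replicate 2. The cause was not tested. Over all genes the calls ranged from 362 without single-knockout replicate 1 to 2285 without its replicate 2, beside 2096 with all libraries, and were 2907 with DESeq2. With 2 to 26 counts behind each *Oprk1* and *Oprl1* value in the single-knockout libraries, depth limits these genes. No paired analysis was possible because the replicate numbers were given in the order of the labels and pair no mice.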
